A study of Rattus norvegicus with 65 samples.

Results

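Liraglutide versus sham compares the hypothalamus of rats given liraglutide, a drug that activates the receptor of glucagon-like peptide-1 (GLP-1), with that of sham-operated rats. Its members were chosen by the group and batch in the sample labels, and are the 5 liraglutide and 6 sham libraries of batch B, 11 of the 65 libraries of the series, with all genes. The series holds RNA sequencing of the whole hypothalamus of male Wistar rats, 1 library per animal, after gastric bypass, gut hormone treatment or control procedures. Every animal of the groups used here was 9 to 10 weeks old at the start, was made obese by 6 weeks of high-fat diet, then chose between high-fat and low-fat food, and was studied after 4 weeks of intervention and a 10 h fast. Liraglutide animals had 0.4 mg/kg/day under the skin and isotonic saline from an osmotic minipump. Sham animals had a sham operation under isoflurane and butorphanol with carprofen afterwards, and no pump or injection is described for them. Saline animals, of which 5 belong to batch B, had saline by pump and under the skin, and their values are set beside the others. Against sham, the drug cannot be told apart from the pump, the injections and the absence of an operation. In the text, liraglutide 1 to 5, sham 6 to 11 and saline 4 to 8 are the replicates as numbered in the labels.

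The table gives counts of sequencing reads per gene. Liraglutide 1 to 5 had 24602787, 21993173, 20798692, 21416590 and 27241271 counts on genes. Sham 6 to 11 had 20040821, 22967376, 21625472, 22382895, 20405895 and 21375291. Liraglutide 5 was the deepest library and sham 6 the shallowest, and the ranges of the groups overlapped. Mean depth (exact permutation test, two-sided, p = 0.184), the share of the 10 most abundant genes (p = 0.381), the share of genes of the mitochondrial chromosome (p = 0.0866) and the number of genes with a count (p = 0.34) all had a Benjamini-Hochberg adjusted p of 0.346 or more over these 4 measures. Genes of the mitochondrial chromosome took 1.003%, 1.557%, 1.935%, 1.675% and 1.292% of the counts of liraglutide 1 to 5, and a lowest, median and highest share of 1.265%, 2.055% and 3.187% in sham. Sham 6 had the highest share of the 11 libraries. Single-gene levels are given as CPM, counts scaled to library size with TMM. Differences are log2 fold changes with an approximate standard error (SE) derived from the test, liraglutide over sham, so that positive values are higher with liraglutide.

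GLP-1 is made in the gut and in neurons of the hindbrain, and its receptor, encoded by Glp1r, couples through a stimulatory G protein to cyclic AMP. In the hypothalamus the receptor is known from neurons of the arcuate and paraventricular nuclei, and GLP-1 receptor agonists lower food intake and body weight. The arcuate nucleus holds neurons that make the appetite-promoting peptides AgRP and NPY and neurons that make the appetite-reducing peptides from Pomc and Cartpt, both of which respond to leptin and insulin.

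The tissue label was checked against genes that mark hypothalamus. Nkx2-1, a regulator of ventral hypothalamic development, was at 16.3, 15.7, 12.6, 4.34 and 4.33 CPM in liraglutide 1 to 5, and its lowest, median and highest levels in sham were 5.09, 13.8 and 27.98. Six3, a regulator of forebrain and eye development, was at 6.804 to 11.6 CPM in liraglutide and 5.33 to 12.3 in sham libraries. Both genes had counts in all 11 libraries, and their ranges overlapped between groups. Otp, a regulator of neuroendocrine neurons, was at 5.74, 7.802, 0, 1.001 and 22.3 CPM in liraglutide 1 to 5, and at 0 in sham 6, 0.0496 in sham 10 and 1.85 to 7.18 in the other 4 sham libraries. Six6, another developmental regulator, was at 0 in liraglutide 3, sham 6 and sham 10, and at 0.0477 CPM in liraglutide 4. Hcrt, which encodes orexin of the lateral hypothalamus, reached 389.8 CPM in liraglutide 2 and 305 in sham 9, with 0.625 in liraglutide 3, 0.238 in liraglutide 4, 0 in sham 6 and 1.24 in sham 10. Oxt, the gene of oxytocin, was at 52.9, 309.9, 2.45, 16.3 and 961 CPM in liraglutide 1 to 5, and ran from 0.0522 in sham 6 to 1943 in sham 9. Liraglutide 3, sham 6 and sham 10 thus had Otp, Six6 and Hcrt at or near 0, and liraglutide 4 was low for all 3 genes as well.

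Markers of neighbouring tissues also set libraries apart. The 12 striatum markers summed to 5076 CPM in sham 6 and 5386 in sham 10, against 255 to 1020.5 in the other 4 sham libraries, and to 339, 261, 1812, 979 and 323 in liraglutide 1 to 5. Their most abundant gene was Ppp1r1b, a phosphatase inhibitor of dopamine-responsive neurons, at 1870.3 CPM in sham 10 and 517 in liraglutide 3. The median log2 fold change of the list was -1.46, and it was 0.57 without sham 6 and 10. The 9 tested markers of the anterior pituitary summed to 302, 32.6, 5.19, 3.86 and 10.5 CPM in liraglutide 1 to 5 and to 7.75, 9.08 and 19.6 as lowest, median and highest in sham. Liraglutide 1 stood far above all others, with Cga, the shared subunit of pituitary glycoprotein hormones, at 202 CPM, and Pou1f1, Ghrhr and Gnrhr were too low in all libraries to be tested. The 15 tested genes of meningeal fibroblasts, led by the growth factor gene Igf2, summed to 2034 CPM in liraglutide 1 and 1324 in sham 11, and to between 148 and 379 in the other 9 libraries. The 12 cortex and hippocampus markers had the largest positive median of the 38 lists, 1.51, with 10 above 0. In edgeR 1 was higher at the adjusted p and 6 at an unadjusted p under 0.05. In that direction, 733 (3.55%) and 2255 of all 20628 genes tested passed these thresholds. Of the 12 markers, Lamp5, the most abundant, differed by -0.41 (edgeR adjusted p = 0.777). Their sums were 246, 93.5, 267, 386 and 208 CPM in liraglutide 1 to 5 and 85.3, 133 and 358 as lowest, median and highest in sham, and the median was 1.66 without sham 6 and 10, 0.35 in DESeq2 with its shrinkage prior and 0.10 with all 65 libraries. The 1 gene lost the adjusted p without sham 6 and 10. Whether tissue of this kind has a part in the differences of neuronal channel and receptor genes was not tested. For 11 thalamus markers, led by the kinase gene Prkcd, the sums were 121, 124, 104, 434 and 365 in liraglutide 1 to 5 and 102, 116 and 139.7 as lowest, median and highest in sham, so that liraglutide 4 and 5 were above the rest. The 12 choroid plexus markers, led by the transthyretin gene Ttr, were highest in liraglutide 4 (347 CPM) and sham 10 (260.2 CPM) and lowest in sham 6 (16.1 CPM). The part that such tissue has in the gene differences was not tested as such. The comparison is given with all libraries and again without some that stand apart: sham 6 and 10, alone or with liraglutide 1 or liraglutide 3. Liraglutide 4, liraglutide 5 and sham 11 were left out only singly, and no setting left out all libraries that stand apart. In bulk tissue, fewer cells of a type and less RNA per cell cannot be told apart.

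**Figure D1:**
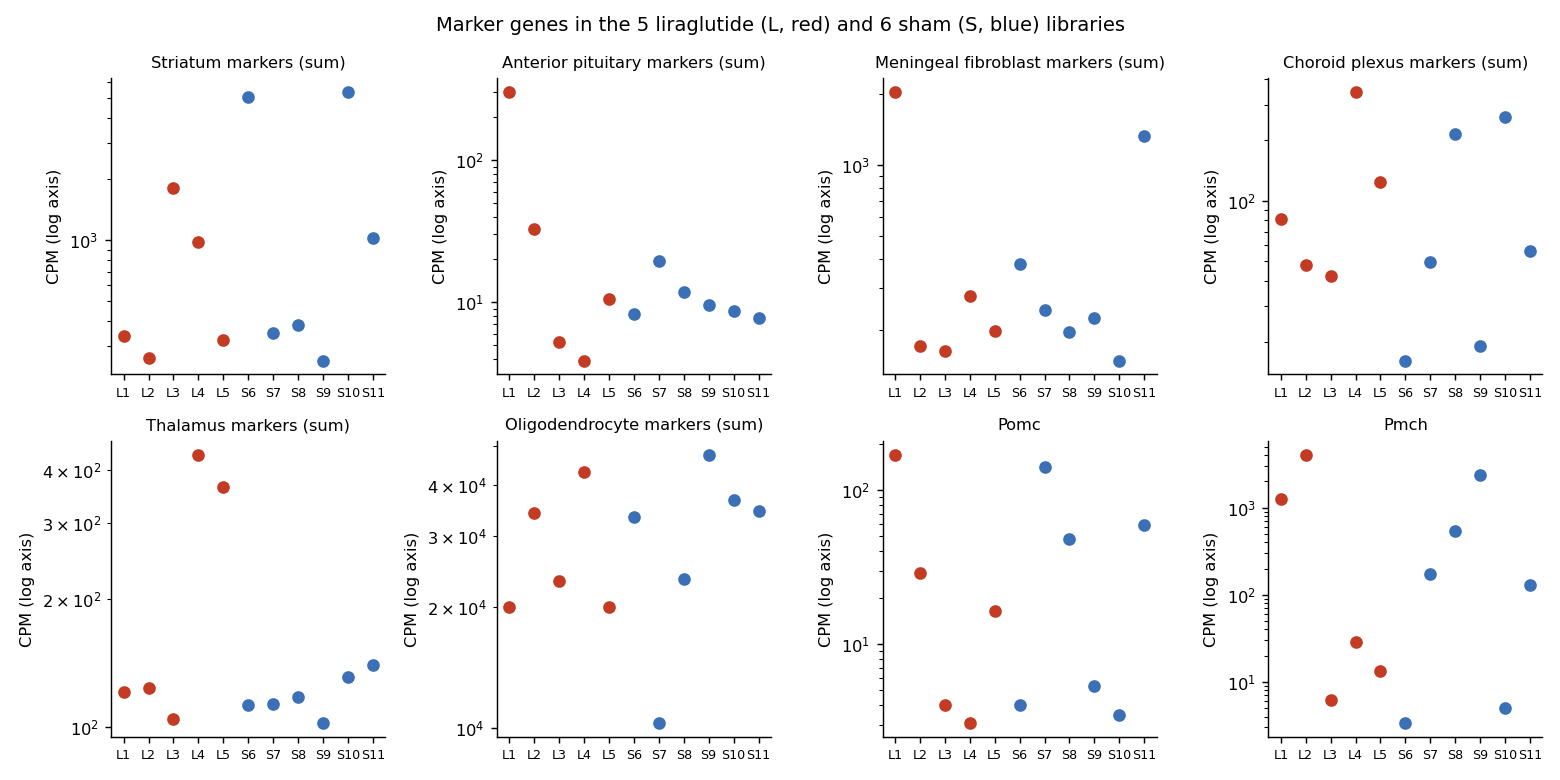
Summed CPM of marker genes of other tissues and of oligodendrocytes, and the CPM of Pomc and Pmch, on log axes, with 1 point per library for liraglutide 1 to 5 (L, red) and sham 6 to 11 (S, blue). Sham 6 and 10 are highest for striatum markers, liraglutide 1 for pituitary and meningeal markers, and Pomc and Pmch spread over more than a factor of 10 within both groups.

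With all 11 libraries and both thresholds, 314 genes were called higher with liraglutide and 12 lower, whereas at an unadjusted p under 0.05 alone the 2 sides were close, at 2255 and 2077. The hypoxia-responsive transcription factor gene Epas1 averaged 84.7 ± 15.5 CPM (SD, n = 5) with liraglutide and 39.3 ± 5.54 (SD, n = 6) in sham, and the glial potassium channel gene Kcnj10 42.003 ± 5.47 and 17.5 ± 2.56. Acaca and Scd4, enzymes of fatty acid synthesis and desaturation, the insulin receptor gene Insr with its adaptor Irs1, and the receptor subunit genes Grin3a and Chrnb2 were also higher. Ribosomal protein genes all had log2 fold changes below 0, most of them small, and the gonadotropin-releasing hormone gene Gnrh1 was lower with a wide spread in sham. Glp1r itself and the arcuate feeding peptides did not pass the test.

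Of 20628 genes tested in edgeR, 314 (1.52%) were called higher at an adjusted p under 0.05 and a log2 fold change over 1, and 12 (0.0582%) were called lower below -1. At the adjusted p alone, 733 genes (3.55%) were higher and 375 (1.82%) lower. The median log2 fold change of all genes tested was -0.02, that of the 314 higher genes 1.33 and that of the 12 lower genes -1.47. In 579 genes (2.81%) every liraglutide library lay above every sham library, and in 292 (1.42%) every one lay below. Of the 314 genes called higher, 200 (63.7%) had groups fully apart in this way, and of the 12 called lower, 5 (41.7%). The 314 comprised 270 protein-coding genes, 25 pseudogenes, 16 long noncoding RNA genes, 2 microRNA genes and 1 other RNA gene, and 215 of them carry a gene name rather than a locus number. Their median level over the 11 libraries was 4.65 CPM, against 13.3 CPM for all genes tested.

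**Figure D2:**
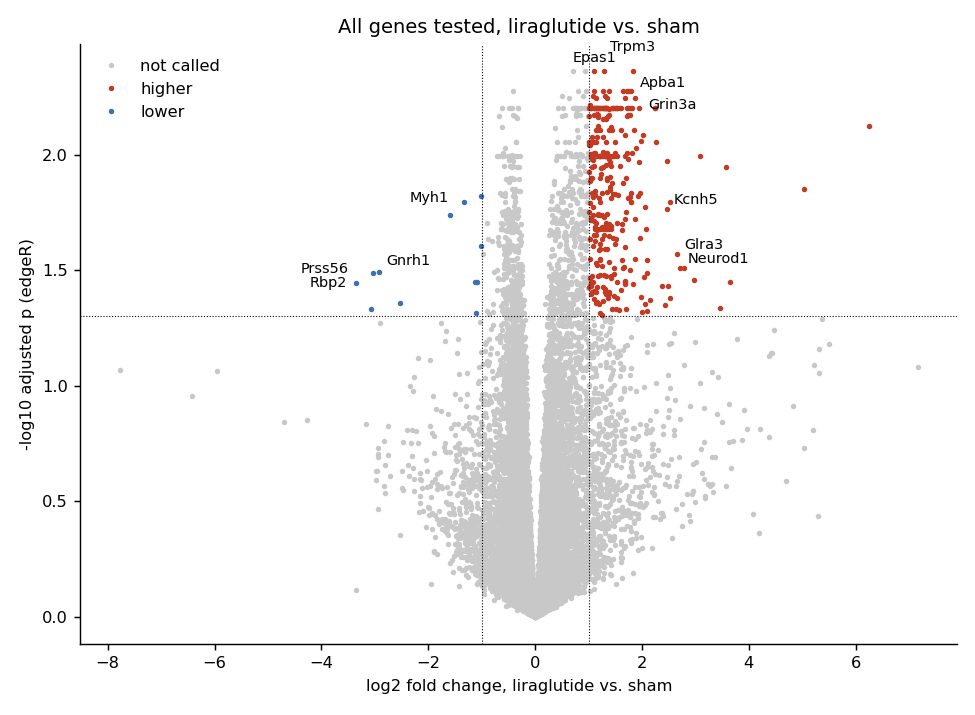
Log2 fold change of liraglutide over sham (x axis) against -log10 of the edgeR adjusted p (y axis), 1 point per gene tested, with dotted lines at the thresholds. The 314 genes called higher (red) lie to the right and the 12 called lower (blue) to the left.

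These counts depended on which libraries entered. Without sham 6 and 10, an alternative chosen after seeing the data, 185 genes were called higher and 1 lower in edgeR, and 150 of the 185 were among the 314. Without liraglutide 1 as well, edgeR called 0 higher and 0 lower, with 2049 and 1598 genes at an unadjusted p under 0.05 and a smallest adjusted p of 0.0579. DESeq2 on the same libraries called 290 higher and 16 lower, of which 209 and 2 were called with all libraries in edgeR. Without sham 6, sham 10 and liraglutide 3, 3 of the 4 libraries with low hypothalamic markers, edgeR called 32 higher and 1 lower. The 314 genes were higher in all of these fits except 1 gene in the last, and their median log2 fold change was 1.32, 1.29, 1.30 and 1.30 in that order. They were chosen on libraries that these fits and the next share, so their signs and medians are a description and not a test. With all 65 libraries and a batch term, in which the sham libraries of batch A also enter, 17 genes were called higher and 0 lower (1723 and 1935 at an unadjusted p under 0.05), and 313 of the 314 were higher. Over settings with all libraries of batch B, DESeq2 without shrinkage called 397 higher and 21 lower, and DESeq2 with its shrinkage prior 92 and 3. On the same libraries, limma voom, which was run with quality weights per library, called 377 and 7.

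**Figure D3:**
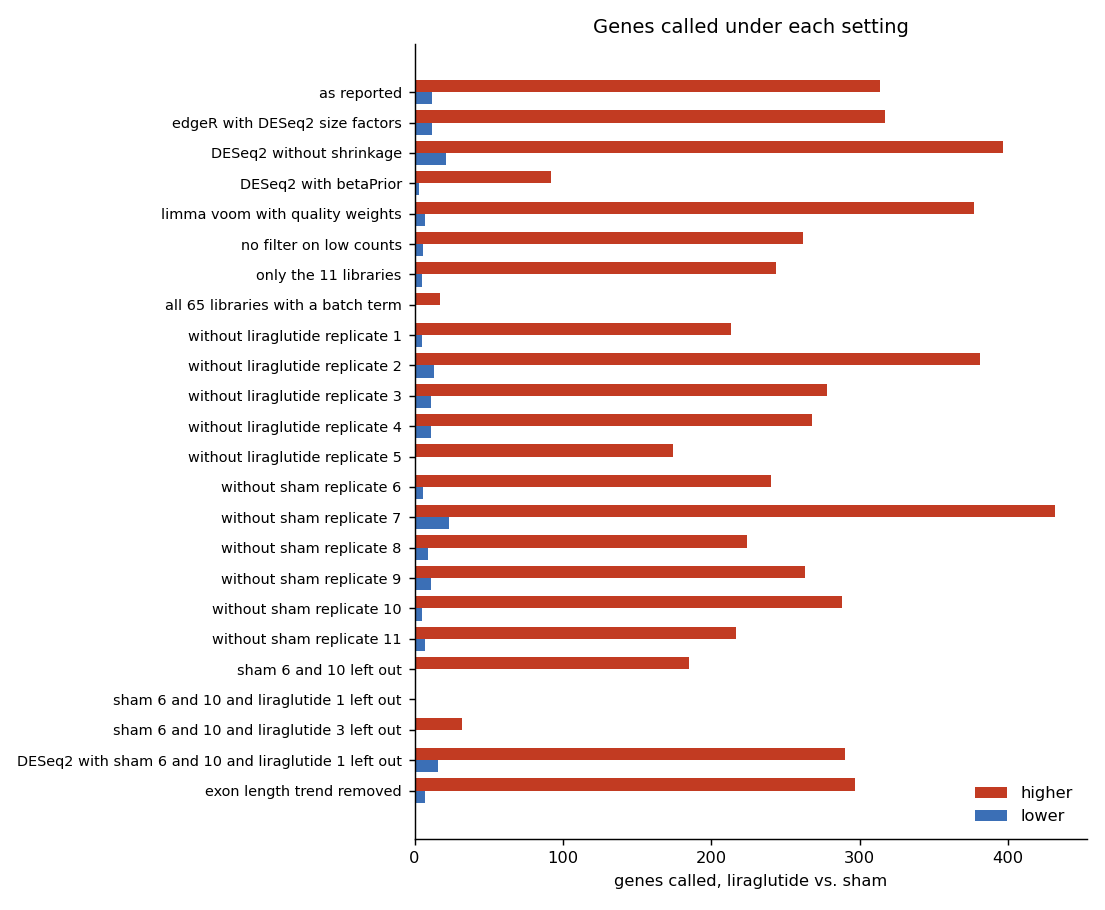
Number of genes called higher (red) and lower (blue) with liraglutide than with sham under each setting, 1 pair of bars per setting. The bars for higher genes run from 0 without sham 6, sham 10 and liraglutide 1 in edgeR to 432 without sham 7.

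Epas1 and Kcnj10 were among the named genes of smallest p. Epas1 encodes a subunit of the hypoxia-inducible transcription factors and lies at chr6:10306508-10385239 of Rnor_6.0. Its levels in liraglutide 1 to 5 were 95.02, 60.7, 77.2, 96.2 and 94.1 CPM, and the lowest, median and highest of sham were 31.9, 39.04 and 45.97. Every liraglutide library was above every sham library, and liraglutide 2 was the lowest of its group. The log2 fold change was 1.11 ± 0.17 (SE), with an edgeR adjusted p of 0.00436, and it was 1.03 with an adjusted p of 0.0579 without sham 6, sham 10 and liraglutide 1. Kcnj10 (chr13:90722945-90753338), the inwardly rectifying potassium channel of astrocytes and oligodendrocytes, was at 42.8, 36.8, 36.1, 45.8 and 48.5 CPM in liraglutide 1 to 5 and at 12.9, 18.2 and 20.1 in sham. The groups were fully apart, and the log2 fold change was 1.26 ± 0.21 (edgeR adjusted p = 0.00529). Nfic, of the nuclear factor I family, and Axl, a receptor tyrosine kinase that binds Gas6, had adjusted p-values of 0.00436 and 0.00436 in edgeR, with log2 fold changes of 0.71 and 0.94 that stayed under the threshold of 1. Both had groups fully apart, at 22.1 to 40.7 CPM with liraglutide and 12.8 to 17.2 in sham for Axl, and both were chosen after their values were seen.

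Lists of cell type markers were examined beside single genes. Of 11 astrocyte markers tested, 9 had a log2 fold change above 0, with a median of 0.12, and their sums were 7551, 6935, 5286, 6900.1 and 6843 CPM in liraglutide 1 to 5 and 5260.0, 6344 and 8479.9 as lowest, median and highest in sham. The most abundant, S100b, differed by -0.04 on the log2 scale, and liraglutide 3 had the lowest sum of its group. Of 16 oligodendrocyte markers, 15 were below 0 with a median of -0.20, and their sums ran from 19975 to 43109 CPM with liraglutide and from 10260.0 in sham 7 to 47706 in sham 9, led by the myelin gene Mbp. Among 12 microglia markers, Cx3cr1, the fractalkine receptor, had an edgeR adjusted p of 0.0355 at a log2 fold change of 0.68, and the list median was -0.11. Of 12 endothelium and pericyte markers, Rgs5, a pericyte regulator of G protein signalling, had an adjusted p of 0.0486 at 0.69, with a list median of 0.15. Each was the 1 member of its list past the adjusted p, as were 3.55% of all genes tested, higher. Neither gene passed it without sham 6 and 10 (0.0594 for Cx3cr1 and 0.0897 for Rgs5), without liraglutide 1 (0.0703 and 0.0798) or without liraglutide 5 (0.104 and 0.0975). The 11 neuron markers had a median of 0.17 and sums of 4401, 5341, 5865, 5059 and 5179.5 CPM in liraglutide 1 to 5 and 4588, 5011 and 5524 as lowest, median and highest in sham. Leaving out sham 6 and 10 turned the sign of the neuron median, to -0.04, and of the microglia median, to 0.03, and brought that of astrocytes to 0.01 and of oligodendrocytes to -0.07. No marker of astrocytes, oligodendrocytes or neurons passed an adjusted p of 0.05 in edgeR (0, 0 and 2 at an unadjusted p under 0.05), or in DESeq2 with all libraries, and 1 of the neuron markers passed it in limma voom. Without sham 6, sham 10 and liraglutide 1, DESeq2 called the neuron marker Gad2 higher at 1.36 (adjusted p = 0.0192), against 0.0988 in edgeR.

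A promoter sequence is shown for Epas1 because it is the named gene of smallest p among those called higher. The window is chr6:13624680-13624979 on the minus strand of the RefSeq assembly GRCr8, from 250 bases before to 50 after the start, and capitals mark GGGCGG or its reverse complement CCGCCC, the letters of a GC box.
Epas1: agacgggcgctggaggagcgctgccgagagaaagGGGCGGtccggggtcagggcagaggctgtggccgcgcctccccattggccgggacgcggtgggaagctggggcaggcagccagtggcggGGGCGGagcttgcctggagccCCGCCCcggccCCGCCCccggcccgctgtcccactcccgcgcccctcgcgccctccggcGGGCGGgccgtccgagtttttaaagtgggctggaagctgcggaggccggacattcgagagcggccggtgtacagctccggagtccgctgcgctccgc
The window held 5 matches, and those of Kcnj10 and Apba1, also looked up, held 2 each. Of the 314 genes called higher, 171 matched a promoter by symbol, and 60.1% of their 193 promoters held the letters, against 54.2% of the 14808 promoters of genes tested and 33.1% of all 33469 promoters. A match is a description of these letters and not a site.

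Trpm3, Hcn2, Ncs1 and Apba1 were also among the 15 genes of smallest p. Trpm3 (chr1:239741572-240757583), a cation channel opened by heat and by neurosteroids, was at 42.2, 21.8, 24.5, 26.2 and 28.9 CPM in liraglutide 1 to 5 and at 8.4004, 11.2 and 18.1 in sham. All liraglutide libraries were above all sham libraries, with liraglutide 1 highest, and the log2 fold change was 1.29 ± 0.20 (edgeR adjusted p = 0.00436). Hcn2 (chr7:12851730-12870087), a pacemaker channel opened by hyperpolarization and cyclic AMP, was at 82.6, 105, 145, 113 and 98.6 CPM, and its sham values were 38.8, 51.1 and 71.3. Again the groups did not overlap, at 1.09 ± 0.19 on the log2 scale with an edgeR adjusted p of 0.00558. Without liraglutide 3, its highest library, the call was lost, and with all 65 libraries the log2 fold change was 0.58. Ncs1 (chr3:10556250-10602672), a neuronal calcium sensor, was at 50.9, 41.1, 67.4, 59.8 and 62.4 CPM against 15.5, 22.3 and 29.9 in sham, and Apba1 (chr1:241594565-241796512), a presynaptic adaptor that binds Munc18 and the amyloid precursor protein, at 48.5, 26.96, 38.2, 43.7 and 55.5 against 8.76, 12.3 and 17.002. Neither gene had overlapping groups, and their log2 fold changes were 1.31 ± 0.23 and 1.80 ± 0.30 (edgeR adjusted p = 0.00558 and 0.00529).

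Of 86 potassium channel genes tested, 5 were called higher and 7 had an adjusted p under 0.05, all higher, against 1.52% and 3.55% of all genes tested. The median log2 fold change of the family was 0.32, against -0.02 for all genes, and 57 members were above 0. Besides Kcnj10, the called members were Kcnj3 and Kcnj9, subunits of G protein-gated channels, Kcnh5, of the ether-a-go-go type, and Kcnk9, a leak channel. Kcnh5 was at 1.11, 0.374, 1.44, 1.67 and 1.81 CPM in liraglutide 1 to 5 and 0, 0.163 and 0.6297 in sham, and Kcnk9 at 16.9, 9.02, 10.003, 11.7 and 18.4 and 1.84, 3.9001 and 8.8995. Kcnh5 overlapped between groups through liraglutide 2, and Kcnk9 did not overlap, by a small margin over sham 7. Their log2 fold changes were 2.46 and 1.63, with edgeR adjusted p-values of 0.0172 and 0.02001. Kcnj9 was at 21.8 to 46.5 CPM with liraglutide and 9.91 to 24.3 in sham, with overlap between liraglutide 3 and sham 7 and a log2 fold change of 1.08. Kcnh5 lost its call in 7 of 23 alternatives, among them without liraglutide 5, Kcnk9 in 8, among them without liraglutide 1 or 5, and Kcnj9 in 11, among them without liraglutide 1, liraglutide 5, sham 6, sham 10 or sham 11. With 1 library left out, 3 (without liraglutide 5) to 9 (without sham 7) of the family passed the adjusted p, and without sham 6 and 10 it was Kcnj10 alone, with a log2 fold change of 1.31.

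Glutamate receptor genes had 4 of 26 members higher at the adjusted p and 2 called, against 3.55% and 1.52% of all genes tested, with a median of 0.23. When sham 6 and 10 were left out, 1 of the 26 passed the adjusted p, and without liraglutide 1 or liraglutide 3 as well edgeR passed 0 (DESeq2 and limma voom passed 6 each with all libraries). Leaving out liraglutide 1 or sham 11 alone left 1, and liraglutide 4, liraglutide 5 or sham 6 alone 2. Grin3a (chr5:64928620-65073012), an NMDA receptor subunit that lowers calcium entry, was at 14.6, 7.48, 9.62, 11.6 and 15.3 CPM in liraglutide 1 to 5 and 1.98, 2.85 and 7.05 in sham. The groups did not overlap, and the log2 fold change was 1.71 ± 0.34 (edgeR adjusted p = 0.006796). Grik3, a kainate receptor subunit, was at 10.2, 2.38, 9.14, 6.15 and 7.99 CPM against 0.522, 1.07 and 5.29, and the low liraglutide 2 and the high sham 7 overlapped. Its log2 fold change was 2.07 ± 0.52 (edgeR adjusted p = 0.0211), and the call was lost in 10 of 23 alternatives. These included leaving out liraglutide 1 (adjusted p = 0.0604), liraglutide 5 (adjusted p = 0.0543), sham 11, or sham 6 and 10 (adjusted p = 0.0941). Chosen after their values were seen, Gria1, an AMPA receptor subunit, and Grm8, a metabotropic receptor, passed the adjusted p (0.04397 and 0.0311 in edgeR) at log2 fold changes of 0.89 and 0.90, and did not pass it in 14 and 12 of 23 alternatives. The most abundant of the family, Grin1, which every NMDA receptor contains, differed by 0.18 (adjusted p = 0.459).

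The nicotinic, glycine, serotonin and GABA-A receptor lists each had 1 member higher at the adjusted p, as had 3.55% of all genes tested. Chrnb2 (chr2:189088570-189096785), the common beta subunit of brain nicotinic receptors, was at 29.7, 19.2, 27.5, 28.6 and 35.02 CPM in liraglutide 1 to 5 and 7.89, 8.87 and 16.3 in sham, where sham 7 alone exceeded 10 CPM. The groups did not overlap, at 1.498 ± 0.29 on the log2 scale (edgeR adjusted p = 0.006299), and the 14 nicotinic genes tested had a median of 1.02. That median was 0.77 without sham 6 and 10, 0.68 without liraglutide 1, 0.60 with all 65 libraries and 0.16 in DESeq2 with its shrinkage prior, and without sham 6, sham 10 and either liraglutide 1 or 3 edgeR passed 0 of the list. Glra3, a glycine receptor subunit, was at 1.701, 1.21, 0.673, 0.525 and 2.202 CPM and 0, 0.121 and 0.672 in sham, and Htr1a, the serotonin 1A receptor, at 3.92, 2.803, 2.36, 1.001 and 3.303 and 0.695, 0.867 and 2.14. Glra3 overlapped through sham 7 alone and Htr1a through sham 7 and sham 10, and they had log2 fold changes of 2.65 and 1.32 with edgeR adjusted p-values of 0.0271 and 0.0403. The median was 0.54 over 5 glycine receptor genes and 0.14 over 12 serotonin receptor genes, against 0.27 and 0.89 without sham 6 and 10. Of 17 GABA-A receptor genes, Gabra3 passed the adjusted p (0.0314) at a log2 fold change of 0.73, and their median was 0.11 (0.24 without sham 6 and 10). Gabra3 lost the adjusted p without sham 6 and 10 (0.111), without liraglutide 1 (0.0841) and without liraglutide 5 (0.0981). Glra3 and Htr1a lost their calls without liraglutide 1, without liraglutide 5 and without sham 6 and 10, whereas Chrnb2 and Grin3a kept theirs in these 3 settings.

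**Figure D4:**
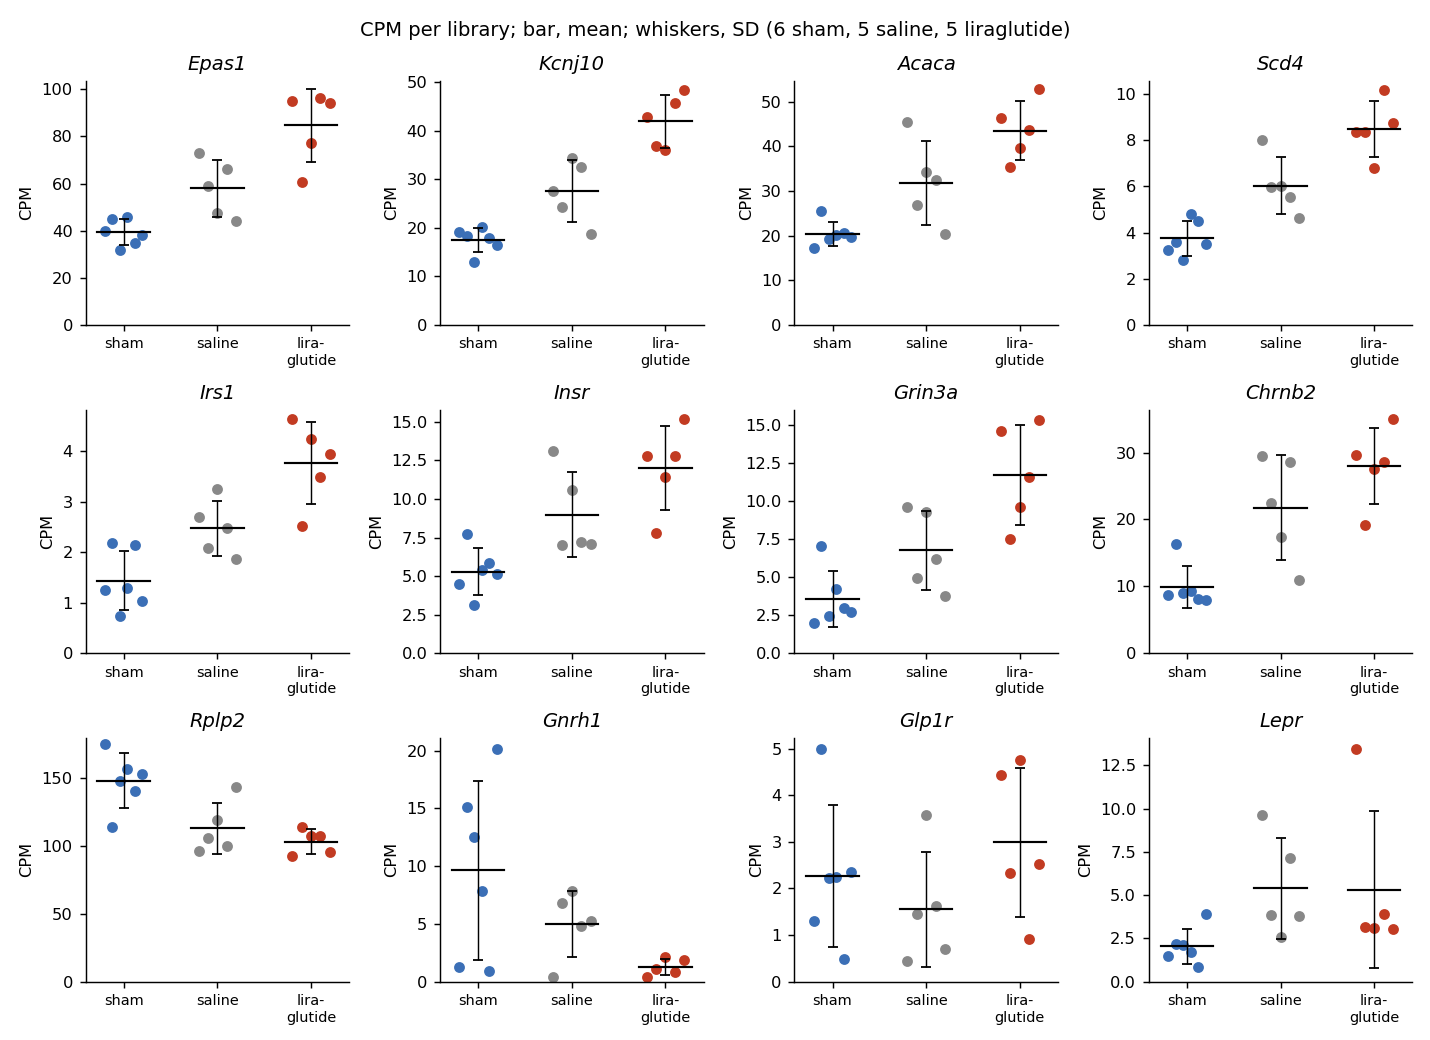
CPM of 12 named genes in 6 sham (blue), 5 saline (grey) and 5 liraglutide libraries (red), 1 point per library, with the mean as a bar and the SD as whiskers. Epas1, Kcnj10, Acaca, Scd4, Irs1, Insr, Grin3a and Chrnb2 have every liraglutide point above every sham point, Rplp2 has every liraglutide point below, and Glp1r and Lepr overlap.

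Genes of cholesterol and fatty acid synthesis lay on 1 side. All 25 members tested had a log2 fold change above 0, with a median of 0.25 against -0.02 for all genes tested. Of these, 8 had an adjusted p under 0.05 in edgeR and 3 were called, among them Acaca and Scd4, against 3.55% and 1.52% of all genes tested. Acaca (chr10:71519392-71719910), acetyl-CoA carboxylase, which commits acetyl-CoA to fatty acid synthesis, was at 46.4, 35.4, 39.6, 43.6 and 52.9 CPM in liraglutide 1 to 5 and 17.2, 19.9 and 25.4 in sham. The stearoyl-CoA desaturase gene Scd4 (chr1:264094007-264105473) was at 8.35, 8.36, 6.78, 10.2 and 8.74 CPM and 2.83, 3.57 and 4.81 in sham. In both genes each liraglutide library exceeded each sham library, of which the highest was sham 7 for Acaca and sham 9 for Scd4. The log2 fold changes were 1.10 ± 0.18 and 1.18 ± 0.22, with edgeR adjusted p-values of 0.00529 and 0.006299. Others past the adjusted p, chosen after their values were seen, included the fatty acid desaturases Fads2 (0.78) and Fads1 (0.37), the desaturase Scd (0.67) and lanosterol synthase Lss (0.57), which did not pass it in 3, 12, 7 and 17 of 23 alternatives. Scd2, the most abundant member, differed by 0.21 with an adjusted p of 0.291. Scd, Scd2 and Scd4 are paralogs, and reads that map to several of them were shared out as fractions, so their separate levels are less certain. With 1 library left out, 4 (without liraglutide 1) to 8 members passed the adjusted p. Without sham 6 and 10, 4 passed it and the median was 0.18, without the 2 and liraglutide 3, 2 passed it with a median of 0.25, and without the 2 and liraglutide 1 edgeR passed 0, against 8 by DESeq2 and 7 by limma voom with all libraries.

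The promoter of Scd4 is shown for this group, since most promoters matched for its members hold the same short motif. The window is chr1:253152269-253152568 on the plus strand of GRCr8 (RefSeq), and capitals mark ATTGG, which with its reverse complement CCAAT is the letters of a CCAAT box.
Scd4: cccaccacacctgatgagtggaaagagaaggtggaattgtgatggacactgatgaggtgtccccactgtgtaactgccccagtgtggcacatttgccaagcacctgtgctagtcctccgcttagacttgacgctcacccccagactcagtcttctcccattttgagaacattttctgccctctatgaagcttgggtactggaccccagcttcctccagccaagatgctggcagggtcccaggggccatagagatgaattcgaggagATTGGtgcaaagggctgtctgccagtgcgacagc
This window held 1 match, and those of Fads2 and Scd, looked up for the same group, held 0. Of the 25 genes 17 matched a promoter, and 14 of their 18 promoters (77.8%) held ATTGG or CCAAT, against 36.5% for genes tested and 37.5% for all promoters.

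Leptin and insulin signalling had 4 of 21 genes higher at the adjusted p, of which 2 were called, against 3.55% and 1.52% of all genes tested, and a median of 0.23. Of the 21, 3 passed it without sham 6 and 10, and without liraglutide 1 or liraglutide 3 as well edgeR passed 0 (DESeq2 and limma voom passed 5 and 6 with all libraries). Leaving out liraglutide 5 alone left 2. Irs1 (chr9:88033668-88086488), the adaptor that insulin and insulin-like growth factor receptors phosphorylate, was at 4.63, 2.52, 4.23, 3.48 and 3.94 CPM in liraglutide 1 to 5 and 0.741, 1.27 and 2.18 in sham. Insr (chr12:1682527-1816414), the insulin receptor, was at 12.8, 7.802, 11.4, 12.8 and 15.2 CPM and 3.15, 5.27 and 7.72 in sham. Neither gene overlapped between groups, though liraglutide 2 came within 0.1 CPM of the highest sham library for Insr. Their log2 fold changes were 1.38 ± 0.27 and 1.18 ± 0.24 (edgeR adjusted p = 0.00634 and 0.00685), and 1.51 and 1.16 without sham 6 and 10 (adjusted p = 0.02895 and 0.0383). Stat5b, a transcription factor downstream of cytokine receptors and chosen after its values were seen, passed the adjusted p at 0.88 but not in 6 of 23 alternatives. Lepr (chr5:120503475-120682281), the leptin receptor, was at 13.4, 3.18, 3.08, 3.91 and 3.02 CPM in liraglutide 1 to 5 and 0.843, 1.92 and 3.898 in sham. Liraglutide 1 was more than 3 times as high as any other liraglutide library, and the other 4 lay around or below the highest sham library. The log2 fold change was 1.38 ± 0.43 with an edgeR adjusted p of 0.0587, and 0.69 with an adjusted p of 0.348 without liraglutide 1. With all libraries of batch B, DESeq2 without shrinkage called the gene and DESeq2 with its shrinkage prior did not. In edgeR it was called without liraglutide 2 or without sham 11.

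Genes of the GLP-1 system came next. Gcg, which encodes the precursor of GLP-1, had 6 counts in the 11 libraries together, all in 1 library, and was not tested. Glp1r (chr20:9586075-9626228) was at 4.43, 2.34, 4.76, 0.906 and 2.52 CPM in liraglutide 1 to 5 and 0.496, 2.23 and 4.995 in sham. The groups overlapped over nearly their whole range, with a log2 fold change of 0.39 ± 0.61 and an edgeR adjusted p of 0.765, and its sign turned in 3 of 23 alternative settings. Dpp4, the peptidase that inactivates GLP-1, was at 9.41, 1.26, 0.673, 1.96 and 1.42 CPM and 0.139, 0.921 and 3.19 in sham, high in liraglutide 1 alone, and differed by 1.14 with all libraries and -0.01 without liraglutide 1. Of 25 tested genes of the GLP-1 system and cyclic AMP signalling, 16 were above 0, the median was 0.14 (0.25 without sham 6 and 10), and 1 passed the adjusted p, as did 3.55% of all genes in the same direction. That gene was Pde4a, a phosphodiesterase that breaks down cyclic AMP, at 26.2, 25.7, 33.9, 27.2 and 33.6 CPM in liraglutide 1 to 5 and 14.4, 16.4 and 22.96 in sham. Its groups were apart at a log2 fold change of 0.75 ± 0.16 (edgeR adjusted p = 0.0101), and the adjusted p was 0.0606 without sham 6 and 10. Gnas, the stimulatory G protein and the most abundant of the list, differed by -0.23 (adjusted p = 0.687). Among 11 tested receptors of related gut hormones and amylin, the median was -0.10, and Calcr, the calcitonin receptor, ran from 10.8 to 184 CPM with liraglutide and from 19.2 to 294 in sham.

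The arcuate peptides varied far more within groups than between them. Pomc (chr6:28382937-28388771), the precursor of melanocortins, was at 170.3, 29.2, 3.99, 3.05 and 16.4 CPM in liraglutide 1 to 5 and 3.47, 26.7 and 142 in sham. Agrp, the melanocortin antagonist, was at 8.35, 1.402, 0.433, 0.0954 and 1.74 CPM and 0.238, 1.404 and 5.08 in sham. For both genes liraglutide 1 was highest of all libraries and liraglutide 3 and 4 were near the lowest. Npy was at 13.8, 7.102, 28.6, 20.5 and 10.2 CPM against 9.23, 18.8 and 72.5 in sham, and Cartpt at 186, 234, 37.9, 8.73 and 75.1 against 18.2, 121 and 206. The log2 fold changes of Pomc, Agrp, Npy and Cartpt were 0.03, 0.43, -0.86 and -0.21, with edgeR adjusted p-values of 0.992, 0.829, 0.322 and 0.902. Without sham 6 and 10 they were -0.51, 0.01, 0.08 and -0.58, and without those and liraglutide 1 -2.27, -1.36, 0.13 and -0.86, none past an adjusted p of 0.05. The melanocortin receptor genes Mc3r and Mc4r differed by 0.04 and -0.52 (adjusted p = 0.983 and 0.491). Of the 20 genes of the arcuate feeding circuit, Insr alone passed the adjusted p in edgeR, against 3.55% of all genes higher. DESeq2 passed 2 of them at the adjusted p, and the list median was 0.02 (-0.08 without sham 6 and 10). Of 26 transcription factors of hypothalamic nuclei, 0 passed it in edgeR, DESeq2 or limma voom (1 at an unadjusted p under 0.05, higher), and the list median was 0.06 (-0.17 without sham 6 and 10).

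Of the other hypothalamic neuropeptides, 28 genes tested, the 1 past the adjusted p was Gnrh1 (chr15:44441856-44446064), whose peptide drives the gonadotropins, against 1.82% of all genes lower at the adjusted p. Gnrh1 was at 0.435, 1.07, 2.16, 0.811 and 1.85 CPM in liraglutide 1 to 5 and 0.893, 10.2 and 20.1 in sham. All liraglutide libraries were low, 4 sham libraries were above 7 CPM, and sham 6 and sham 10 lay within the liraglutide range. The log2 fold change was -2.92 ± 0.79 (edgeR adjusted p = 0.0323), and -3.45 (adjusted p = 0.0299) without sham 6 and 10, where it was the 1 gene called lower. The call was lost without liraglutide 1 (adjusted p = 0.0888), liraglutide 5 (adjusted p = 0.0688), liraglutide 2, liraglutide 4, sham 8 or sham 11, and in 12 of 23 alternatives in all. Pmch, which encodes melanin-concentrating hormone and is the most abundant of the list, was at 1269, 4063, 6.204, 28.996 and 13.2 CPM and 3.34, 149.6 and 2344 in sham, and differed by 1.02 ± 1.64 (adjusted p = 0.776). The median of the list was -0.34, and it was -0.48 without sham 6 and 10.

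The other named genes called lower were of low level. Prss56, a serine protease, was at 0.198, 0.234, 0, 0.668 and 0.3196 CPM in liraglutide 1 to 5 and 0.704, 1.15 and 8.88 in sham, and Rbp2, a cellular retinol-binding protein, at 0, 0.187, 0, 0.0954 and 0 and 0.261, 0.5704 and 0.973. Neither overlapped between groups, but the highest sham value of Prss56 was that of sham 10 and exceeded the next by more than 5 times. Their log2 fold changes were -3.04 and -3.35, and -1.72 and -3.54 without sham 6 and 10, where neither was called (adjusted p = 0.215 and 0.0594 in edgeR). Myh1 and Myh6, heavy chains of muscle myosin, were at 0.355 to 0.811 and 2.15 to 3.703 CPM with liraglutide and 1.05 to 2.71 and 2.85 to 9.39 in sham. Myh1 did not overlap between groups and Myh6 did, at log2 fold changes of -1.34 and -1.09 (edgeR adjusted p = 0.0161 and 0.0356). Ankrd37, an ankyrin repeat gene, and Wfikkn1, a secreted inhibitor of myostatin, overlapped between groups, with log2 fold changes of -1.01 and -1.10 (edgeR adjusted p = 0.0249 and 0.0486). All 4 of these lost their calls without sham 6 and 10.

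The remaining genes of the 15 with the smallest p among those called higher were Nudcd3, Mtmr9, Nwd1, Fam217b, Smg6, Hyal1, Brsk2 and Nt5c1a. Nudcd3, a cochaperone, was at 9.18, 6.21, 8.704, 7.54 and 10.7 CPM in liraglutide 1 to 5 and 2.07, 2.43 and 4.198 in sham, and Mtmr9, of the myotubularin family, at 21.5, 13.1, 19.4, 16.6 and 26.3 and 4.28, 5.11 and 10.7. Both had groups apart, at 1.64 ± 0.28 and 1.68 ± 0.29 on the log2 scale (edgeR adjusted p = 0.00529 and 0.00569). Brsk2, a kinase of neuronal polarity, was at 23.8 to 33.9 CPM with liraglutide and 7.701 to 16.4 in sham (1.32), and Smg6, an endonuclease of nonsense-mediated decay, at 2.06 to 3.96 and 0.595 to 1.595 (1.73). Nt5c1a, a cytosolic 5'-nucleotidase, ran from 11.4 to 19.1 CPM against 4.49 to 10.5 (1.23), Nwd1, of the NACHT and WD repeat family, from 25.98 to 43.3 against 11.97 to 24.98 (1.13), and Fam217b, of unknown function, from 14.7 to 27.5 against 5.698 to 13.6 (1.35). Hyal1, a lysosomal hyaluronidase, was the 1 gene of the 15 with overlap, since liraglutide 2 (11.4 CPM) was below sham 7 (11.6 CPM). In all 8, liraglutide 2 was the lowest of its group. Nwd1 and Hyal1 each lost the call in 6 of 23 alternatives, and the rest in 3. Without sham 6 and 10, Nwd1 and Hyal1 had log2 fold changes of 0.999 and 0.980, under the threshold of 1 (edgeR adjusted p = 0.0346 for both).

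Ribosomal protein genes differed by a small amount. All 78 genes tested had a log2 fold change below 0, the median was -0.38, and 31 had an adjusted p under 0.05, all lower, against 1.82% of all genes tested. None was below -1, so none of the 78 was called at both thresholds in edgeR, and 71 had an unadjusted p under 0.05. Rplp2 (chr1:214428280-214430551), an acidic protein of the ribosomal stalk, was at 92.1, 113, 107, 107 and 95.1 CPM in liraglutide 1 to 5 and 114, 150.0 and 175 in sham. Every liraglutide library was below every sham library, by less than 1 CPM at the closest. The log2 fold change was -0.52 ± 0.11 (edgeR adjusted p = 0.0101). Summed over the list, liraglutide 1 to 5 had 17844, 21805, 20990.0, 21662 and 16951 CPM and sham 20177, 25144 and 30151 as lowest, median and highest, so that sham 7, the lowest of its group, lay within the liraglutide range. Rps19 is in the table at 2 places, between which reads are shared, and was lower at both. Without sham 6 and 10, 5 passed the adjusted p with a median of -0.32, and without liraglutide 1 as well edgeR passed 0 (DESeq2 and limma voom passed 50 and 55 with all libraries). With a trend on exon length removed within each library, 7 passed it and the median was -0.14. In edgeR without that trend removed, leaving out 1 library gave 1 (without liraglutide 5) to 65 (without sham 7) past the adjusted p.

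Rplp2 and Rpl11 promoters are shown for this group. Their windows in GRCr8 (RefSeq) are chr1:205975671-205975970 on the plus strand and chr5:153560753-153561052 on the minus strand, and capitals mark CCGGAAG or its reverse complement CTTCCGG, the letters of an ETS factor motif.
Rplp2: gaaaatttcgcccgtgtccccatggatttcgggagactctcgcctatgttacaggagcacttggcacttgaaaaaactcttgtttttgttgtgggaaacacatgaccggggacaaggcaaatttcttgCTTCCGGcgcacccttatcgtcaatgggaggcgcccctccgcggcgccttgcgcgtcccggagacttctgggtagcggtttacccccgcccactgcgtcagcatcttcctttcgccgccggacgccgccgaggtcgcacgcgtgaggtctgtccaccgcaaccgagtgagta
Rpl11: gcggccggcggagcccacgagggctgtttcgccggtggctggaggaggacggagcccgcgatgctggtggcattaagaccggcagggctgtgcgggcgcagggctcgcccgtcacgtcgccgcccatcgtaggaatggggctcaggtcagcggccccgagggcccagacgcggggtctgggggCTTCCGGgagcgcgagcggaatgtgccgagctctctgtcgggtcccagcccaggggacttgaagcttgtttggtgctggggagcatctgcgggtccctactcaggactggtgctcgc
Each held 1 match, and the window of Rpl18, looked up for the same group, held 0. Of 77 ribosomal symbols 62 matched a promoter, and 20 of their 63 promoters (31.7%) held the motif, against 13.5% for genes tested and 8.75% for all promoters. Among the ribosomal genes past the adjusted p it was 11 of 23 promoters (47.8%), from 23 of 30 symbols.

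Oxidative phosphorylation and proteasome genes were examined beside them. Of 82 nuclear genes of oxidative phosphorylation, 69 were below 0, with a median of -0.26, and 7 were lower at the adjusted p, against 1.82% of all genes tested. The 7 included Sdhd (-0.33), a subunit of complex II, and Ndufa7 (-0.33), of complex I. Leaving out sham 6 and 10 left 2 past the adjusted p, and without liraglutide 1 or liraglutide 3 as well edgeR passed 0 (DESeq2 and limma voom passed 16 and 31 lower with all libraries). Leaving out 1 library gave 0 (without liraglutide 1 or 5) to 24 (without liraglutide 2). The most abundant, Atp5b of the ATP synthase, differed by 0.04 (edgeR adjusted p = 0.794). Of 38 proteasome genes, 3 were lower at the adjusted p, such as Psmb2 (-0.30) and the immunoproteasome subunit Psmb10 (-0.60). Another 1 was higher, and of all genes tested 1.82% were lower and 3.55% higher. The median of the proteasome list was -0.07. Of the 38, 1 was lower at the adjusted p without sham 6 and 10, when Psmb10 had 0.103, and 0 without liraglutide 1 or 3 as well. With 1 library left out, the number ran from 0 (without liraglutide 5) to 9 (without liraglutide 2).

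Across all genes, the log2 fold change moved with the length of a gene's exons. Among 10 equal groups of genes by exon length, the group with the shortest exons reached up to 895 bases. Its median log2 fold change was -0.29, and 188 of its genes were lower at the adjusted p. In the group with the longest, from 6997 bases, the median was 0.08, and 2 were lower and 91 higher. The genes with the shortest exons had a median deviation from the mean of the libraries of -0.23, 0.00, -0.06, -0.11 and -0.27 on the log2 scale in liraglutide 1 to 5. In sham 6 to 11 the medians of the same genes were 0.23, -0.08, 0.10, 0.25, 0.09 and 0.18. Sham 7 was thus on the side of the liraglutide libraries, and liraglutide 2 was nearest to the mean. The 314 genes called higher had medians of 0.90, 0.28, 0.78, 0.72 and 1.02 in liraglutide 1 to 5 and of -0.73, -0.03, -0.84, -0.63, -0.54 and -0.80 in sham 6 to 11, but were chosen on these libraries, so that this is a description. Liraglutide 2 was the lowest of its group in 212 of the 314, and sham 7 the highest of its group in 206. When a trend on exon length was removed within each library, chosen after seeing the data, 297 genes were called higher and 7 lower, of which 274 and 6 were the same genes. The oxidative phosphorylation median was then -0.04 with 1 lower, and the lipid synthesis median 0.17 with 6 higher.

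**Figure D5:**
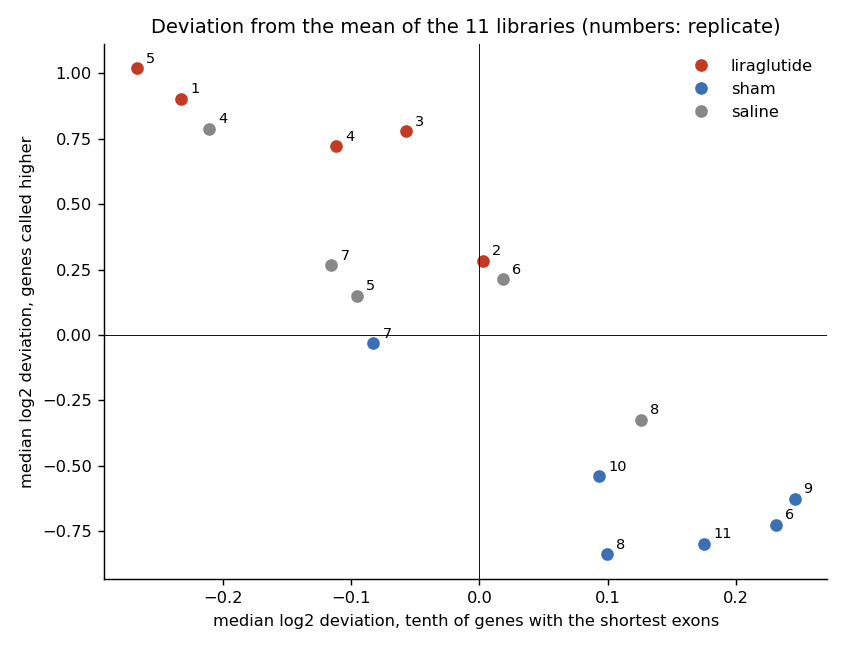
Median log2 deviation from the mean of the 11 libraries for the group of genes with the shortest exons (x axis) and for the 314 genes called higher (y axis), 1 point per library, with the replicate number beside it and saline libraries in grey. Liraglutide 5 (-0.27 and 1.02) and sham 9 (0.25 and -0.63) lie near opposite corners, with sham 7 and liraglutide 2 between them.

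Single members of further lists passed the test. Neurod1, a transcription factor of granule neurons and the called member of 12 cortex and hippocampus markers, was at 5.02, 1.17, 1.35, 1.38 and 1.56 CPM in liraglutide 1 to 5 and 0, 0.307 and 0.6297 in sham. Its groups were apart, liraglutide 1 was far above the rest, and the log2 fold change was 2.72 ± 0.73 (edgeR adjusted p = 0.0311), or 2.10 without liraglutide 1 (adjusted p = 0.124). Kl, the gene of klotho and 1 of 12 choroid plexus markers, was at 3.13, 1.35, 0.962, 5.34 and 3.66 CPM and 0.446, 0.581 and 1.08 in sham, overlapped through liraglutide 3, and had a log2 fold change of 2.16 ± 0.62 (edgeR adjusted p = 0.0425). It was highest in liraglutide 4, as were the choroid plexus markers as a sum. Col25a1, a membrane collagen of neurons, was at 6.63 to 14.8 CPM with liraglutide and 0.209 to 7.35 in sham (1.61), the 1 of 43 collagen genes called, with a median of -0.10 over the list. Each of these 3 lists had 1 member called higher, as had 1.52% of all genes tested. Of 18 genes of the stress axis and glucocorticoid response, Zbtb16, a target of the glucocorticoid receptor, alone passed the adjusted p (0.0428) at 0.72, as did 3.55% of all genes in the same direction, with a list median of 0.06 (0.20 without sham 6 and 10). Zbtb16 did not pass it without sham 6 and 10 (0.167), liraglutide 1 (0.103) or liraglutide 5 (0.0524). Neurod1, Kl and Col25a1 lost their calls without sham 6 and 10, without liraglutide 1 and without liraglutide 5.

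In 18 of the 38 lists, with 241 entries, 0 genes passed an adjusted p of 0.05 in edgeR. At an unadjusted p under 0.05, 20 entries were higher and 5 lower, against 2255 and 2077 of all 20628 genes tested. DESeq2 passed 6 of the entries (5 higher) and limma voom 7 (5 higher). Over all 20628 genes, DESeq2 without shrinkage and limma voom called 397 and 377 higher, with the log2 fold change threshold as well. Their shares of all genes at the adjusted p alone are not given here, so their counts are not read as a result about the lists. The circadian clock list, whose genes keep daily rhythm, had a median of 0.03 over 18 genes, and DESeq2 and limma voom each passed 4 of them, higher. Its median was 0.33 without sham 6 and 10, with 1 gene past the adjusted p, and -0.06 without liraglutide 4, and without sham 7 edgeR passed 3. Nr1d1, a repressor in the clock, was at 80.1, 78.4, 84.4, 109 and 83.03 CPM in liraglutide 1 to 5 and 68.8, 70.4 and 84.3 in sham, with overlap and a log2 fold change of 0.26 (edgeR adjusted p = 0.0596). Immediate early genes, which report recent neuronal activity, had a median of -0.08 over 19 genes, the list of inflammation and NF-kB 0.12 over 18, the thyroid hormone axis 0.15 over 10, and endoplasmic reticulum stress -0.11 over 19, against 0.04, 0.08, 0.30 and -0.26 without sham 6 and 10. Of the last list, edgeR passed 2 genes, lower, without liraglutide 1 (Creld2 at 0.0292 and Calr at 0.0408) and 1 without liraglutide 2, sham 6 or sham 10, and DESeq2 without sham 6, sham 10 and liraglutide 1 passed 7. Hspa5, the chaperone that leads the last list, was at 393 to 702 CPM with liraglutide and 437 to 874 in sham. Medians of the remaining marker lists were 0.53 for choroid plexus, -1.01 for ependyma, 0.11 for tanycytes, 0.53 for habenula, 0.97 for thalamus, 0.51 for meninges, 0.61 for anterior pituitary and -0.47 for blood. Leaving out sham 6 and 10, whose blood markers summed to 571 and 412 CPM against at most 249.7 in the other 9 libraries, turned the blood median to 0.54 and that of tanycytes to -0.05, and about doubled the pituitary median. The pituitary and meninges medians turned to -0.36 and -1.04 without liraglutide 1, and those of habenula and thalamus were -0.07 and -0.07 with all 65 libraries.

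The 2 microRNA genes called higher were Mir3102 and Mir343, named after their values were seen. Poly-A libraries hold no mature microRNA as such, so the counts are of reads on the annotated hairpin. Mir3102 (chr1:165921184-165921320) was at 1.78, 1.17, 2.404, 1.29 and 2.49 CPM in liraglutide 1 to 5 and 0, 0.314 and 0.756 in sham, and Mir343 (chr1:80298686-80298778) at 0.475, 0.374, 0.337, 0.382 and 0.781 and 0, 0.111 and 0.198. Both were apart between groups at very low level, with log2 fold changes of 2.52 ± 0.60 and 2.06 ± 0.49 (edgeR adjusted p = 0.0161 and 0.0169), and lost their calls in 4 of 23 and 4 of 19 alternatives that tested them. Mir343 lies inside Ercc2, a helicase gene of DNA repair on the same strand, which differed by -0.06 and did not pass the test. The mature sequence of rno-miR-3102 (RefSeq, GRCr8, chr1:164655877-164655897, minus strand) is given to identify it, with its seed, bases 2 to 8, in capitals.
rno-miR-3102: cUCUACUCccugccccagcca

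The saline libraries of batch B are set beside these values, but some of them stood apart in markers of other tissues. Cortex and hippocampus markers summed to 1483 CPM in saline 4, striatum markers to 3066 in saline 8, and thalamus markers to 370.2 in saline 5 and 754 in saline 7. Habenula markers summed to 103, 268 and 462 CPM in saline 4, 5 and 7, against at most 63.2 in liraglutide and 57.8 in sham. Their median log2 fold change was 3.24 for saline over sham and -2.79 for liraglutide over saline. The 314 genes had median deviations from the mean of the 11 libraries of 0.79, 0.15, 0.21, 0.27 and -0.32 in saline 4 to 8. Liraglutide versus sham and liraglutide versus saline share the liraglutide libraries, and liraglutide versus sham and saline versus sham share the sham libraries, so that their values are set side by side and no overlap is drawn from them. Epas1 was at 44.2 to 73.03 CPM in saline, Kcnj10 at 18.7 to 34.5 and Insr at 6.99 to 13.1. The saline range overlapped both other groups for Epas1 and Insr, and overlapped sham and lay below liraglutide for Kcnj10. The log2 fold changes of liraglutide over saline were 0.55, 0.61 and 0.42 for these 3 genes, and those of saline over sham 0.56, 0.66 and 0.76. Over the 314 genes the median was 0.50 for liraglutide over saline and 0.87 for saline over sham. Liraglutide versus saline, the test of whether the liraglutide and saline differences from sham differ, called 0 genes higher (0%) and 1 lower (0.00485%) in edgeR, with 533 higher and 515 lower at an unadjusted p under 0.05, and DESeq2 called 1 and 2. Saline versus sham called 1 higher (0.00485%) and 0 lower (0%) in edgeR, with 1780 and 1116 at an unadjusted p under 0.05, and DESeq2 called 107 and 9. Both single calls were Nwd2, a habenula marker, at 15.98, 11.8, 13.3, 9.78 and 14.9 CPM in liraglutide 1 to 5, 6.25, 10.9 and 12.6 in sham and 19.97 to 154 in saline. Ribosomal protein genes had medians of -0.09 for liraglutide over saline and -0.29 for saline over sham, and lipid synthesis genes 0.01 and 0.25.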

How the data were processed

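The series has 65 libraries, 1 per rat hypothalamus, and groups and batches were read from the labels. The authors made stranded poly-A libraries, trimmed single-end reads with cutadapt (version 1.16 in the sample records, 1.16, 2.1 or 2.5 in the paper), mapped them with STAR 2.7.2b to Rnor_6.0 and counted them on the reverse strand with featureCounts 1.6.4, sharing multi-mapping and overlapping reads out in fractions, so the deposited value is an estimated count per gene. The authors tested their own comparisons with DESeq2. Of the nonzero values 30.3% were not whole (tolerance 1e-06), and rounding to whole counts changed no library total by more than 0.001%. Gene lengths are the deposited exon lengths in bases, and coordinates are those of Rnor_6.0.

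Of 38513 genes, 31034 had a count in batch B and 20628 passed filterByExpr (minimum count 10, minimum total 15). edgeR 4.0.16 in R 4.3.3 fitted a robust quasi-likelihood model with TMM scaling and a term per group to all 28 libraries of batch B. The SE given is the absolute log2 fold change divided by the square root of the F statistic of its quasi-likelihood test. A gene was called when its p, adjusted by Benjamini-Hochberg over all genes tested, fell under 0.05 with a log2 fold change over 1 or under -1. DESeq2 1.42.0 and limma 3.58.1 served as alternatives, with other filters, libraries and a length correction. Throughout, limma voom stands for voom with quality weights, which give libraries that stand apart less weight. Depth and quality measures were compared by exact permutation tests in R, further tables and figures were made in Python 3.11.15, and scripts were tested on simulated data. Named genes were the 15 of smallest p called in each direction that carry a gene name, Gcg, Glp1r, Dpp4, Agrp, Npy, Pomc, Cartpt, Lepr, Mc3r and Mc4r, and from each of 38 lists the most abundant gene and up to 4 called genes, or else the 2 of smallest p. Further genes were chosen after their values were seen. The members and lists were chosen with earlier results of these data known. Promoters and microRNAs were matched by symbol to RefSeq tables of GRCr8, in which 12555 of 20558 symbols of genes tested had a promoter.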

Additional observations from a re-analysis of the deposited data

Results flagged for a closer look

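In 320 groups of 5 or 6 libraries, 23 had a highest or lowest library far from the nearest other one, where chance gives about 1 in 20 groups. Sham 7 was far above the other sham libraries for Fam217b at 13.6 CPM (others 5.70 to 7.81), Hyal1 at 11.6 (6.07 to 7.71), Chrnb2 at 16.3 (7.89 to 9.23), Glra3 at 0.672 (0 to 0.190) and Htr1a at 2.14 (0.695 to 1.09), and far below them for Rgs5 at 4.66 (7.23 to 8.45). Sham 10 was far above for Prss56 at 8.88 CPM (others 0.704 to 1.62) and Nr1d1 at 84.3 (68.8 to 72.3), and far below for Cartpt at 18.2 (87.5 to 206) and Lrrc55 at 14.5 (28.9 to 41.3). Sham 11 was far above for Kl at 1.08 CPM (others 0.446 to 0.649), Slc6a20 at 23.1 (3.15 to 6.89) and Igf2 at 679.7 (85.8 to 182), and sham 9 for Tshb at 1.95 (0 to 0.210).

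Liraglutide 1 was far above the other liraglutide libraries for Neurod1 at 5.02 CPM (others 1.17 to 1.56), Lepr at 13.4 (3.02 to 3.91) and Igf2 at 822 (67.5 to 120.04), and for the summed markers of meningeal fibroblasts at 2034 CPM (162 to 279) and of tanycytes at 719.9 (214 to 285). Liraglutide 4 was far above for Nr1d1 at 109 CPM (others 78.4 to 84.4) and Bhlhe40 at 59.8 (37.5 to 42.5). Liraglutide 5 was far below for Myh1 at 0.355 CPM (others 0.712 to 0.811), and liraglutide 3 for the summed astrocyte markers at 5286 CPM (6843 to 7551).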

How the results depend on the processing

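No paired analysis was possible because liraglutide replicates 1 to 5 and sham replicates 6 to 11 share no number. Against 314 genes higher and 12 lower with liraglutide than sham, the counts were 92 and 3 with DESeq2 and its shrinkage prior, 17 and 0 with all 65 libraries and a batch term (1723 and 1935 at an unadjusted p under 0.05), and 733 and 375 at the adjusted p alone. The genes lower numbered 21 with DESeq2 without shrinkage, 7 with limma voom, 6 without a filter on low counts and 5 with only the 11 libraries, where the genes higher stayed within 1.5 times of 314. Leaving out 1 library gave 174 to 432 genes higher and 1 to 23 lower. The lowest counts were those without liraglutide 5 (174 and 1), the highest those without sham 7 (432 and 23), and the genes lower also numbered 5 without liraglutide 1, 6 without sham 6, 5 without sham 10 and 7 without sham 11. Of the alternatives chosen after seeing the data, leaving out sham 6 and 10 gave 185 and 1, leaving out liraglutide 1 as well 0 and 0 (2049 and 1598 at an unadjusted p under 0.05, and 290 and 16 called by DESeq2), leaving out sham 6, sham 10 and liraglutide 3 gave 32 and 1, and removing the exon length trend left 7 genes lower. Liraglutide versus saline gave 1 higher and 2 lower with DESeq2, and 0 lower without the filter (722 lower at an unadjusted p under 0.05). Saline versus sham gave 107 higher and 9 lower with DESeq2, and 2 higher at the adjusted p alone. The cause was not tested.

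Of the 37 named genes called, 0 kept the call under every alternative, and all 37 kept their sign under each. They were chosen on libraries that the alternatives share, so that the kept signs are a description. Of 30 named genes called higher, 19 kept the call without sham 6 and 10, 22 without liraglutide 1, 21 without liraglutide 5, 29 with the length trend removed and 3 with all 65 libraries. Of 104 named genes not called, 7 were called under some alternative, among them Lepr, and 45 changed sign under at least 1. The smallest adjusted p of the exact tests of depth and quality measures was 0.0636 with 1 library left out (mitochondrial share without sham 7, unadjusted p = 0.0159). Groups of 5 and 6 animals limit what can be seen in genes with a wide spread, such as the feeding peptides. Genes under 1 CPM rest on few counts, and drug, pump and operation cannot be told apart against sham.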

Other observations

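Further genes called higher with liraglutide than sham, named after their values were seen, are given here. The muscarinic receptor gene Chrm5 was at 2.25, 0.514, 3.08, 3.29 and 2.31 CPM in liraglutide 1 to 5 and 0, 0.242 and 0.626 as lowest, median and highest in sham, with overlap through liraglutide 2, and Chrm2 at 2.89, 2.897, 6.83, 2.19 and 4.79 and 0.313, 0.932 and 2.35, with overlap through liraglutide 4. Their log2 fold changes were 3.09 ± 0.67 and 1.96 ± 0.50 (edgeR adjusted p = 0.0101 and 0.02297), and that of Chrm3 was 1.21 (adjusted p = 0.0484). The other 2 muscarinic receptor genes, Chrm1 and Chrm4, differed by -0.19 and -0.93 (adjusted p = 0.924 and 0.485), so that 3 of 5 were called, against 1.52% of all genes tested, in a group chosen after its values were seen. Chrm5 lost its call in 4 of 23 alternatives, Chrm2 in 11 and Chrm3 in 17, and without sham 6 and 10 their adjusted p-values were 0.0346, 0.0993 and 0.188. Slc6a11, a GABA transporter of astrocytes, was at 123, 117, 134, 87.7 and 161 CPM and 14.4, 30.5 and 76.3 in sham, and Abat, which breaks down GABA, at 189, 184, 261, 171 and 232 and 86.03, 96.6 and 149. Both had groups apart, at 1.77 ± 0.41 and 1.02 ± 0.21 on the log2 scale (edgeR adjusted p = 0.0153 and 0.00906). Nos1, the neuronal nitric oxide synthase, was at 26.6, 5.84, 14.1, 18.5 and 17.2 CPM and 1.53, 2.604 and 5.54 in sham, with groups apart at 2.47 ± 0.54 (adjusted p = 0.0107), and the dopamine receptor gene Drd5 at 0.954 to 2.84 against 0.298 to 0.588 (2.24, adjusted p = 0.006299). Slc6a11, Abat, Nos1 and Drd5 lost their calls in 4, 12, 3 and 3 of 23 alternatives, and Slc6a11 and Nos1 had adjusted p-values of 0.07201 and 0.0532 without sham 6 and 10. In liraglutide over saline these 7 genes differed by between -0.11 (Chrm3) and 2.05 (Chrm5).

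Of other genes chosen after their values were seen, Kif1a, a motor of synaptic vesicle precursors, was at 431, 281, 449, 489 and 461 CPM in liraglutide 1 to 5 and 147, 199.6 and 217 in sham (1.16 ± 0.23, edgeR adjusted p = 0.00669). Its groups were apart, whereas those of the kinesin gene Kif5a overlapped, at 299.7 to 763 and 119 to 390.0 CPM (1.21). The postsynaptic scaffold gene Shank1 had groups apart at 1.08 (edgeR adjusted p = 0.0105). Kif1a, Kif5a and Shank1 lost their calls in 4, 11 and 7 of 23 alternatives.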
